A study of Mus musculus with 6 samples.

Results

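The genes described here carry glucose and lactate across membranes, run glycolysis, feed pyruvate into the mitochondrion, and sense oxygen through hypoxia-inducible factor (HIF). They were listed by name, 40 in all, by their roles in these steps, with earlier results of these data known. Of the 40, 35 were measured among 19936 genes, each by the probe set with the highest mean among those annotated to that gene alone. Gpi1, Pfkfb1, Gapdh, Eno1 and Mpc2 were not analysed here, and Gapdh appeared only in 25 probe sets that also carry other gene names.

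RNA came from a Tet-off line of mouse embryonic fibroblasts (MEFs), cells that carry a transactivator which tetracycline switches off. The first group was 3 RNA samples of cells that had received an HA-tagged Fbxl10 cDNA together with a hygromycin resistance plasmid, with clones picked for expression of the tagged protein. The second group was 3 RNA samples of the parental Tet-off MEF cells, which were not transfected. Each sample was hybridised to 1 Affymetrix array, and the comparison asks which transcripts differ in level when Fbxl10, now called Kdm2b, is overexpressed. Kdm2b encodes a histone demethylase that binds unmethylated CpG DNA. Independent RNA samples were made for each group, yet whether each had its own clone or culture is not stated. The p-values therefore reflect the spread among these RNA samples, part or all of which may be technical. No group carried the resistance plasmid alone, so overexpression, transfection and clonal selection cannot be told apart for any gene below. In bulk RNA, fewer cells expressing a gene and less RNA per cell cannot be told apart either.

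Glucose enters cells through facilitative carriers and is trapped as glucose-6-phosphate by hexokinase. Phosphofructokinase makes the committed step of glycolysis and exists as liver, muscle and platelet isozymes. Pyruvate, the end product, is either reduced to lactate and exported by monocarboxylate carriers, or imported into the mitochondrion and oxidised by the pyruvate dehydrogenase complex. Pyruvate dehydrogenase kinases switch that complex off and its phosphatases switch it on. HIF raises many of these genes when oxygen is low, while the prolyl hydroxylases encoded by Egln genes mark its alpha subunit for destruction when oxygen is present. Cultured fibroblasts turn much of their glucose into lactate.

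All values are log2 expression values per probe set, and a difference of 1 is a 2-fold change. Array medians lay between 4.69 and 4.79, and over all probe sets arrays of the same group correlated at 0.994 to 0.996 (Pearson) and arrays of different groups at 0.990 to 0.992. Kdm2b had log2 values of 9.77, 9.75 and 9.58 in HA-Fbxl10 cells, against 7.38, 7.45 and 7.28 in control cells, a 5.03-fold rise (limma adjusted p = 3.31e-07). Of 10 fibroblast markers, 9 had mean levels above the median of all genes (5.36), against 1 of 5 macrophage, 0 of 4 endothelial, 2 of 5 epithelial and 0 of 4 skeletal muscle markers. Of the fibroblast markers 1 rose and 2 fell, and none of the other cell types' markers passed the test.

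Among the 35 measured genes, 4 rose and 8 fell in HA-Fbxl10 cells at a limma adjusted p of 0.05, and 23 did not pass. Over all genes the test called 21.1% of genes, 10.5% higher and 10.6% lower. These genes are brighter than most, however, with 30 of the 35 above the median level, and among all genes above the median level 37.0% were called. Of those 30, 10 were called, 33.3%, about as often as all genes above the median level. Genes were not matched more closely in level. The median log2 change of the 35 genes was -0.02, beside -0.0043 for all genes. The arrays of the groups did not overlap for 23 of the 35 genes, against 36.0% of all genes, and for 21 of the 30 brighter ones, against 57.9% of all genes above the median. The plot in pathway order shows at which steps the calls lay. Carriers of glucose, phosphofructokinase, the regulators of pyruvate dehydrogenase and the HIF axis held 11 of the 12 calls. None of the 12 listed genes measured for lower glycolysis, lactate dehydrogenase and the fructose-2,6-bisphosphate enzymes passed. Eno3, an enolase gene outside the list, did rise and is given below. A variance trend in the model, however, called 8 of the 35 genes higher and 11 lower. Over all 19936 genes that setting called 2567 higher and 2465 lower.

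**Figure D1:**
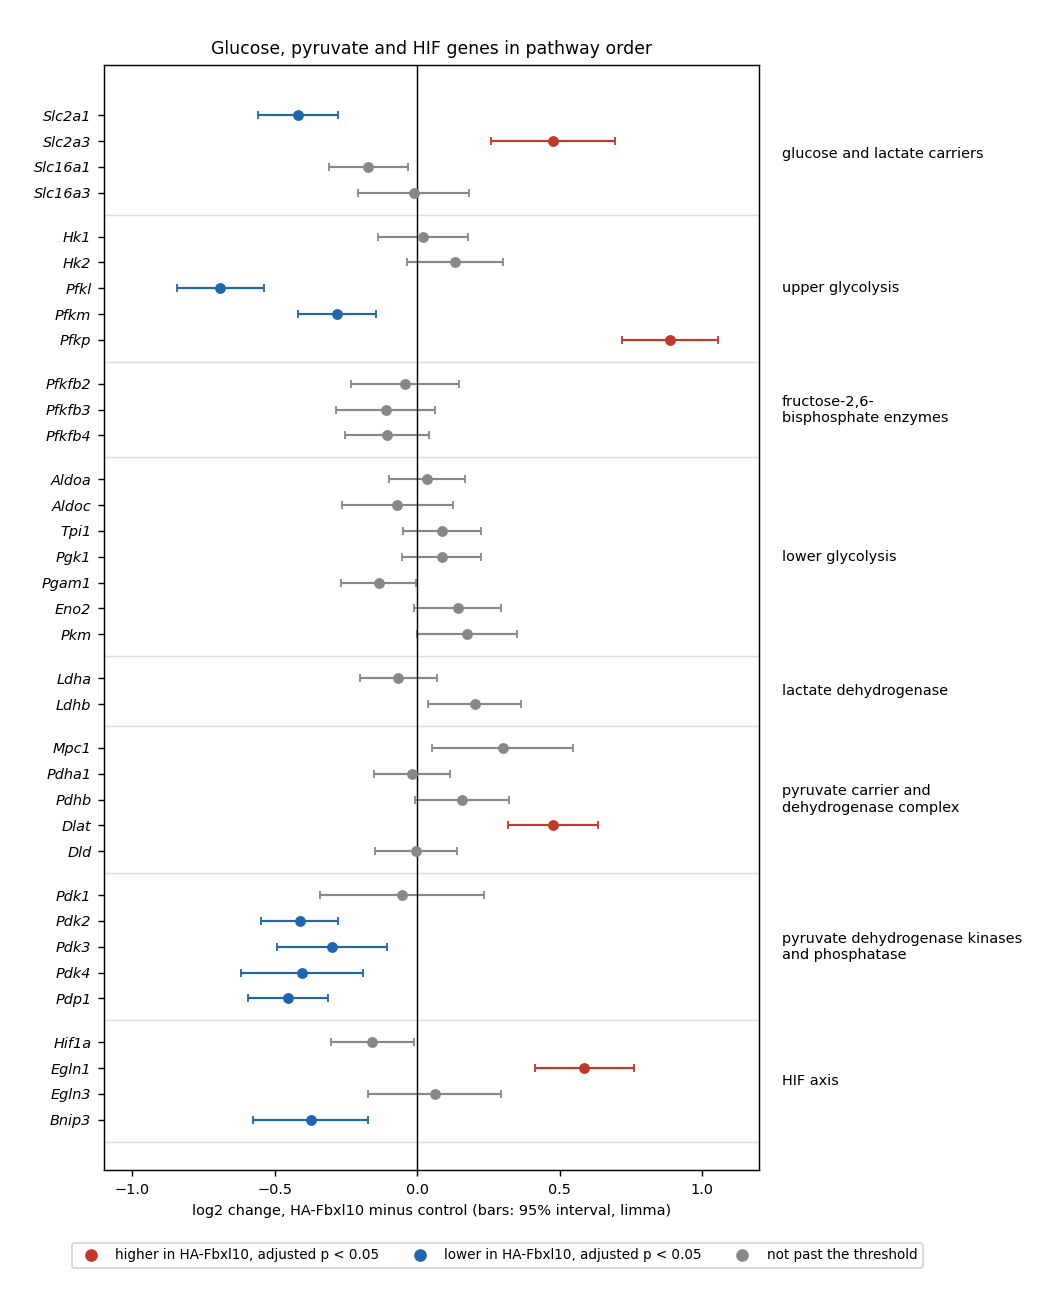
Log2 change of the 35 measured genes, HA-Fbxl10 minus control, in pathway order from glucose carriers (top) to the HIF axis (bottom), with points for the estimate and bars for the 95% interval of that gene alone from limma. Pfkp (0.89) and Pfkl (-0.69) lie farthest from 0, and the 7 measured genes of lower glycolysis lie between -0.13 and 0.17; colours use the p adjusted over all genes, so some grey bars exclude 0.

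The promoters of 4 genes that passed the test are shown first, since 2 of them, Pfkl and Slc2a1, act at the committed step and at glucose entry, and the other 2, Egln1 and Bnip3, belong to the HIF axis and changed in opposite directions. Each is the 250 bases before the gene's start in RefSeq's promoter table (GRCm38.p6), read on the gene's strand, and each lies outside the gene's annotated span. Capitals mark ACGTG or GCGTG, the core letters of the hypoxia response element, on either strand (CACGT or CACGC on the other). They are Pfkl at chr10:78009808-78010057 (minus strand), Slc2a1 at chr4:119108495-119108744 (plus strand), Egln1 at chr8:124949255-124949504 (minus strand) and Bnip3 at chr7:138909507-138909756 (minus strand).
Pfkl: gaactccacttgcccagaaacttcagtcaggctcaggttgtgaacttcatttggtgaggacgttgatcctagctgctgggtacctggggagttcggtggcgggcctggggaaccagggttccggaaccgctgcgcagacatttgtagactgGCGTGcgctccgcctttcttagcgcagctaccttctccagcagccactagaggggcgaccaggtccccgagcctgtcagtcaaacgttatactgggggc
Slc2a1: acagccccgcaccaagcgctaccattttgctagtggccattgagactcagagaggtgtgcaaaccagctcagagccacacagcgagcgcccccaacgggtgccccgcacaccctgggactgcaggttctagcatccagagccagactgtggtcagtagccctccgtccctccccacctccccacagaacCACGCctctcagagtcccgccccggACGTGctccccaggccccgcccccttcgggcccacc
Egln1: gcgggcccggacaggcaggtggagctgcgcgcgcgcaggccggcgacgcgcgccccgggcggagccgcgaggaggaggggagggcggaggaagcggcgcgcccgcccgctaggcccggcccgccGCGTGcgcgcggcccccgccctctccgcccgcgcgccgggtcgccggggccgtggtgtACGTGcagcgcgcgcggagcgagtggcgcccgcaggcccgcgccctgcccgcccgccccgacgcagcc
Bnip3: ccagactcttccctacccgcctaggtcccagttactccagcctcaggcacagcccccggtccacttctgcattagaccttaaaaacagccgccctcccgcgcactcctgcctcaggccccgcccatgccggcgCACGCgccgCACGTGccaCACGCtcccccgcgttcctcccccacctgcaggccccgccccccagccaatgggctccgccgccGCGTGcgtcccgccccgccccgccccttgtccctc
The Pfkl window holds 1 match, Slc2a1 2, Egln1 2 and Bnip3 5, where the palindrome CACGTG in Bnip3 counts as 2 overlapping matches, 1 on each strand. Egln1 has by far the most CG dinucleotides of the 4 windows, 51, beside 13 in Pfkl, 13 in Slc2a1 and 24 in Bnip3.

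RefSeq promoters were matched by symbol for 38 of the 40 listed genes, with 58 windows in all, since some genes have several starts. A match to either core stood in 43 of the 58 windows (74.1%), against 44.0% of the windows of all protein-coding genes and 38.6% of all windows in the table. Counted by gene, 33 of 38 had a match in at least 1 window (86.8%), against 47.1% of protein-coding genes. The listed genes had 58 windows for 38 genes, against 21262 windows for 17491 protein-coding genes. More windows per gene can by itself raise the share counted by gene. Among genes with a promoter entry, all 7 that fell held a match in at least 1 window, as did 2 of the 3 that rose and 20 of the 23 measured genes that did not pass. The median number of CG dinucleotides per window was 14 for the listed genes and 10 for protein-coding genes, and both cores contain CG. Matches are letters in a window and not measured binding.

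The 2 glucose carriers measured changed in opposite directions. Slc2a1 (Glut1), the main glucose carrier of fibroblasts, had values of 9.64, 9.57 and 9.68 in HA-Fbxl10 cells, against 10.03, 10.07 and 10.04 in control cells. The groups did not overlap, and Slc2a1 was 1.34-fold lower, a log2 change of -0.42 ± 0.06 (SE, limma adjusted p = 0.00139). Slc2a3 (Glut3), a high-affinity carrier best known in neurons, had values of 4.92, 5.17 and 5.22 in HA-Fbxl10 cells, against 4.74, 4.66 and 4.48 in control cells. It was 1.39-fold higher (0.48 ± 0.10, SE, limma adjusted p = 0.00686). All 6 of its values were under the median level of 5.36, and the deposited values carry no detection calls. Within each array, Slc2a3 minus Slc2a1 was -4.53 ± 0.17 in HA-Fbxl10 cells and -5.42 ± 0.14 in control cells (SD, n = 3 each), a change of 0.90 (exact two-sided permutation p = 0.1, the smallest that 3 against 3 allows).

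Neither lactate carrier passed. Slc16a1 (Mct1), which carries lactate and pyruvate in either direction, had 8.76, 8.74 and 8.76 in HA-Fbxl10 cells, against 8.96, 8.87 and 8.94 in control cells. Its arrays did not overlap, yet its log2 change of -0.17 (95% interval -0.31 to -0.03) had an adjusted p of 0.0813 in limma. It passed with the values quantile-normalised again (limma adjusted p = 0.0316), with the dimmest 30% of genes left out (0.0486) and with the variance trend (0.0258). With chromosome medians removed its log2 change turned positive, 0.0588, and did not pass. Slc16a3 (Mct4), the HIF-induced lactate exporter, differed by -0.01 (-0.21 to 0.18), with a mean level of 4.82 that lay below the median of all genes.

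Phosphofructokinase held the largest rise and the largest fall among the 35 genes, with the platelet type higher and the liver and muscle types lower. Pfkp, the platelet type, had values of 8.19, 8.12 and 8.11 in HA-Fbxl10 cells, against 7.28, 7.13 and 7.36 in control cells. This was a 1.85-fold rise (0.89 ± 0.07, SE, limma adjusted p = 5.92e-05), and the lowest HA-Fbxl10 array exceeded the highest control array by far more than the spread within either group. Pfkl, the liver type, had 8.58, 8.69 and 8.69 in HA-Fbxl10 cells, against 9.29, 9.42 and 9.33 in control cells, and was 1.62-fold lower (-0.69 ± 0.07, SE, limma adjusted p = 0.000143). Pfkm, the muscle type, had 9.61, 9.57 and 9.54 in HA-Fbxl10 cells, against 9.84, 9.88 and 9.84 in control cells. Its fall was smaller, 1.22-fold (-0.28 ± 0.06, SE, limma adjusted p = 0.00872), and the groups again did not overlap. All 3 calls held in each of the 16 other settings tried.

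Levels of different probe sets cannot be set against each other, but the change of their difference between groups can be read. Pfkp minus Pfkl within an array was -0.39, -0.57 and -0.58 in HA-Fbxl10 cells, against -2.01, -2.29 and -1.97 in control cells, a change of 1.58. Pfkp minus Pfkm was -1.42, -1.45 and -1.43 in HA-Fbxl10 cells, against -2.56, -2.75 and -2.49 in control cells, a change of 1.17. Both isozyme differences thus shifted towards Pfkp on every HA-Fbxl10 array. Each had an exact two-sided permutation p of 0.1, the smallest possible here, and 0.175 after Benjamini-Hochberg adjustment over the 7 isozyme pairs tested, as had the pair of glucose carriers.

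Of the hexokinases, Hk2, the inducible and HIF-responsive form, had 8.30, 8.19 and 8.31 in HA-Fbxl10 cells, against 8.05, 8.10 and 8.26 in control cells. The groups overlapped, and its log2 change of 0.13 (95% interval -0.04 to 0.30) did not pass (limma adjusted p = 0.282). Its neighbours on chromosome 6 were lower in HA-Fbxl10 cells, by a median of -0.36. With a running median of 31 neighbouring genes removed, Hk2 was higher by 0.49 (limma adjusted p = 0.00218). Hk1, the constitutive form, differed by 0.02 (-0.14 to 0.18) in the probe set with the highest mean. That probe set rests on 1 accession and had a mean level of 12.6, within the 11.2 to 12.8 of the 16 probe sets annotated to both Rpl17, a ribosomal protein gene, and Hk1. The other Hk1 probe set rests on 8 accessions and had 8.11, 8.14 and 8.24 in HA-Fbxl10 cells, against 8.26, 8.30 and 8.31 in control cells, a difference of -0.13 with no overlap. The value chosen by the rule may therefore not be that of Hk1. For Hk2 minus Hk1, which rests on it, the change was 0.11 (exact permutation p = 0.4).

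The bifunctional Pfkfb enzymes set the level of fructose-2,6-bisphosphate, the strongest activator of phosphofructokinase. None of the 3 measured passed. Pfkfb3, the form with the highest kinase activity, differed by -0.11 (95% interval -0.28 to 0.06), Pfkfb4, a HIF target, by -0.11 (-0.25 to 0.04), and Pfkfb2 by -0.04 (-0.23 to 0.14). Their arrays overlapped in all 3 cases, and only with chromosome medians removed did 1 of them pass, Pfkfb4 at -0.32 (limma adjusted p = 0.0114).

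In lower glycolysis the 7 listed genes measured, which run from aldolase to pyruvate kinase, had log2 changes of -0.13 to 0.17, and none passed. The arrays did not overlap for 5 of the 7, all of them among the 6 above the median level. Of all genes above that level, 57.9% did not overlap. Pkm (pyruvate kinase) had 12.11, 12.03 and 12.27 in HA-Fbxl10 cells, against 11.92, 12.03 and 11.94 in control cells. The groups only just failed to overlap, and the change of 0.17 (95% interval -0.0001 to 0.35) had a limma adjusted p of 0.160. Its expressed neighbours on chromosome 9 had a median change of 0.26, and with their running median removed Pkm was at -0.0337. With the variance trend Pkm and Pgam1 passed (0.0195 and 0.0108). Pgam1 (phosphoglycerate mutase) had 10.97, 10.96 and 10.94 in HA-Fbxl10 cells, against 11.08, 11.10 and 11.10 in control cells, a difference of -0.13 (-0.27 to -0.0030) that was tight within groups yet did not pass (limma adjusted p = 0.150). The log2 changes of the others were 0.03 for Aldoa (aldolase), 0.09 for Tpi1 (triosephosphate isomerase), 0.09 for Pgk1 (phosphoglycerate kinase), 0.14 for Eno2 (neuronal enolase) and -0.07 for Aldoc (brain aldolase, below the median level). Eno2 passed with chromosome medians removed (0.26, limma adjusted p = 0.0208). No interval of these 7 genes reached beyond 0.35. Several of these genes have near-identical pseudogene copies that probes may not separate, and for both Pgk1 and Pgam1 a pair of their 3 probe sets had the same mean and the same change. Their probe sets agreed closely in the change, 0.08 to 0.09 for Pgk1, -0.14 to -0.13 for Pgam1 and 0.17 to 0.18 for Pkm. Eno3, also an enolase but outside the list, had 9.81, 9.85 and 9.75 in HA-Fbxl10 cells, against 9.31, 9.25 and 9.21 in control cells. It was 1.46-fold higher (0.55 ± 0.06, SE, limma adjusted p = 0.000396), with neighbours on chromosome 11 at -0.18.

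At the branch to lactate, Ldha, the muscle-type subunit and a HIF target, averaged 12.03 ± 0.03 in HA-Fbxl10 cells and 12.09 ± 0.02 in control cells (SD, n = 3 each). The arrays did not overlap, but the difference of -0.07 (95% interval -0.20 to 0.07) was small and did not pass (limma adjusted p = 0.522). Ldhb, the heart-type subunit, had 9.19, 9.16 and 9.25 in HA-Fbxl10 cells, against 9.09, 8.88 and 9.03 in control cells. Its groups did not overlap but its change of 0.20 (0.04 to 0.36) did not pass (limma adjusted p = 0.0846). It passed with the variance trend (0.0210) and with chromosome medians removed (0.0129). Ldhb minus Ldha moved by 0.27, with an exact permutation p of 0.1. The 30 expressed neighbours of Ldhb had a median change of 0.21, and with the running median of neighbours removed Ldhb was at -0.0022. The remaining pairs, Aldoc minus Aldoa (-0.10, exact permutation p = 0.4) and Slc16a3 minus Slc16a1 (0.16, exact permutation p = 0.3), did not separate the groups.

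The listed genes around the pyruvate dehydrogenase complex split into a core with 1 rise and regulators with 4 falls. Dlat, the E2 acetyltransferase of the complex, had 10.14, 10.22 and 10.09 in HA-Fbxl10 cells, against 9.66, 9.60 and 9.76 in control cells. It was 1.39-fold higher (0.48 ± 0.07, SE, limma adjusted p = 0.00131), with no overlap. Its expressed neighbours on chromosome 9 had a median change of 0.25, and with the running median of neighbours removed Dlat was higher by 0.21 (limma adjusted p = 0.0399). The other subunits of the complex did not pass. Pdha1 (E1 alpha) differed by -0.02 (95% interval -0.15 to 0.12), Pdhb (E1 beta) by 0.16 (-0.01 to 0.32), and Dld (E3, shared with other complexes) by -0.0035 (-0.15 to 0.14). Mpc1, a subunit of the mitochondrial pyruvate carrier, had 8.36, 8.40 and 8.32 in HA-Fbxl10 cells, against 8.18, 7.78 and 8.22 in control cells. Control replicate 2 was the low one, and the change of 0.30 had a limma adjusted p of 0.0895, of 0.0436 without control replicate 3 and of 0.0283 with the variance trend.

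Of the 5 listed genes that regulate the complex by phosphorylation, 4 fell and 0 rose. The test called 10.6% of all genes lower. It called lower 1775 of the 9968 genes above the median level, which 4 of the 5 regulators were. In either direction it called 37.0% of those brighter genes. The calls of Pdk3 and Pdk4 were lost in other settings, given below. The group includes kinases, which switch the complex off, and a phosphatase, which switches it on. Pdp1, the catalytic subunit of the phosphatase, had 8.12, 8.15 and 8.15 in HA-Fbxl10 cells, against 8.64, 8.54 and 8.60 in control cells, a 1.37-fold fall (-0.45 ± 0.06, SE, limma adjusted p = 0.000811). Pdk2, a widely expressed kinase, had 5.25, 5.24 and 5.20 in HA-Fbxl10 cells, against 5.65, 5.61 and 5.67 in control cells. It was 1.33-fold lower (-0.41 ± 0.06, SE, limma adjusted p = 0.00123), and the values hardly varied within a group, although they lay close to the median of all genes. When chromosome medians were removed the Pdk2 change was -0.27.

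The other kinase calls were less secure. Pdk4, the starvation-induced kinase, had 3.24, 3.32 and 3.03 in HA-Fbxl10 cells, against 3.60, 3.48 and 3.74 in control cells. Its mean of 3.40 lay under the lower quartile of genes (3.75), where these values do not separate signal from background, and its call (-0.41 ± 0.09, SE, limma adjusted p = 0.0135) ended without HA-Fbxl10 replicate 3 (0.0518). Pdk3 had 9.06, 9.13 and 9.00 in HA-Fbxl10 cells, against 9.50, 9.20 and 9.38 in control cells. Its change of -0.30 ± 0.09 (SE, limma adjusted p = 0.0349) lost its call without any 1 array other than control replicate 2 (adjusted p of 0.0513 to 0.124). The call of Pdk3 also ended with array medians subtracted (0.0731), with the replicate number as a block (0.0728) and with the running median of neighbours removed (0.173). Pdk1, the kinase best known as a HIF target, had 5.46, 5.50 and 5.50 in HA-Fbxl10 cells, against 5.39, 5.35 and 5.89 in control cells. Control replicate 3 stood above the other 5 arrays, and the difference was -0.05 (95% interval -0.34 to 0.23), so changes within that interval could not be told from the spread.

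In the HIF axis the message of Hif1a, the oxygen-regulated subunit, had 9.71, 9.83 and 9.76 in HA-Fbxl10 cells, against 9.96, 9.87 and 9.94 in control cells. The groups did not overlap, but the change of -0.16 (95% interval -0.30 to -0.01) did not pass (limma adjusted p = 0.128), although it passed with the values quantile-normalised again (-0.22, limma adjusted p = 0.0222), with the variance trend (0.0260) and with chromosome medians removed (-0.21, 0.0420). HIF is regulated mainly at the protein level, which arrays do not measure. Egln1 (Phd2), the main HIF prolyl hydroxylase, had 9.16, 9.07 and 9.18 in HA-Fbxl10 cells, against 8.65, 8.42 and 8.59 in control cells, a 1.5-fold rise (0.59 ± 0.08, SE, limma adjusted p = 0.000673). With the running median of its chromosome 8 neighbours removed, Egln1 was higher by 0.36 (limma adjusted p = 0.0118). Egln3 (Phd3), itself HIF-induced, differed by 0.06 (-0.17 to 0.30), at a mean level of 4.87 that was below the median of all genes.

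Bnip3, a HIF-induced mitophagy receptor, had 7.72, 7.69 and 7.74 in HA-Fbxl10 cells, against 8.23, 7.89 and 8.15 in control cells. It was 1.30-fold lower (-0.37 ± 0.09, SE, limma adjusted p = 0.0150), and its second probe set gave -0.46, also with no overlap. Control replicate 2 lay closest to the HA-Fbxl10 arrays, and the call ended without control replicate 1 (adjusted p = 0.0594). Egln1 and Bnip3, whose promoters are printed above, thus moved in opposite directions.

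**Figure D2:**
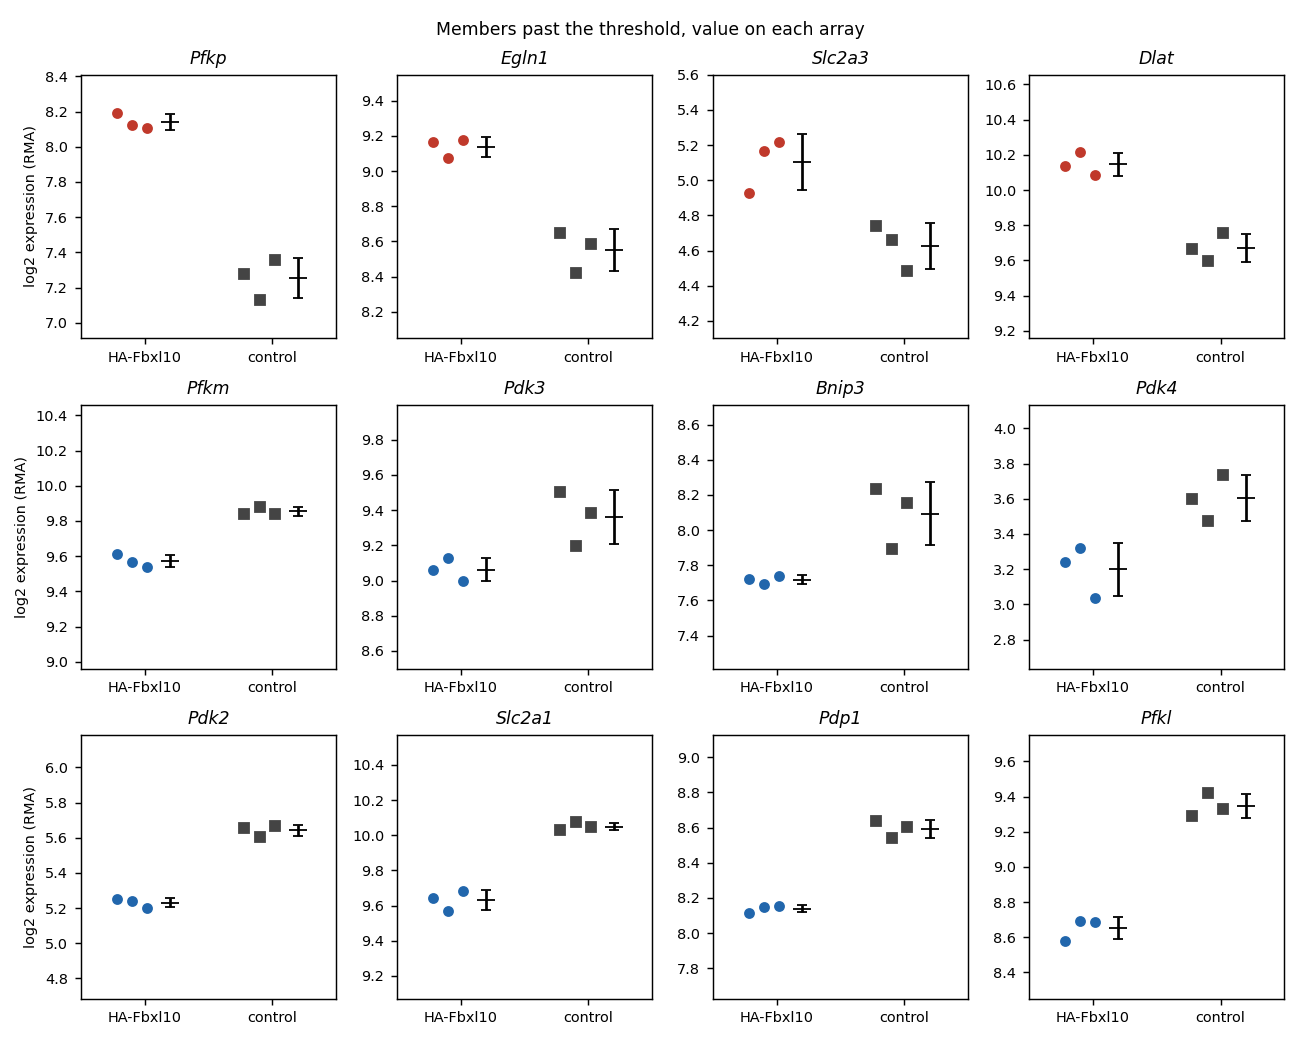
Log2 expression on each array for the 12 genes that passed the test, HA-Fbxl10 arrays (circles) left of control arrays (squares), with the mean and SD (n = 3) beside each group and the same 1.5-unit span on every y axis. Groups do not overlap in any of the 12 panels, and the gap between the nearest arrays of the groups is widest for Pfkp and Pfkl and narrowest for Pdk3.

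Neighbouring genes moved with several of these calls. For 30 of the 35 genes, those above the median level, the median change of up to 30 expressed neighbours on the chromosome was computed with the gene itself left out. Pfkp on chromosome 13 had neighbours at 0.29, Dlat on chromosome 9 at 0.25 and Egln1 on chromosome 8 at 0.19, so each of these 3 rises sat among neighbours that were also higher. Pfkl on chromosome 10 had neighbours at -0.17, Pdk3 on the X chromosome at -0.13, Pdk2 on chromosome 11 at -0.08 and Slc2a1 on chromosome 4 at -0.06. Bnip3 (-0.01), Pfkm (0.02) and Pdp1 (0.05) fell among neighbours with changes near 0. With the running median removed, Pfkp remained higher by 0.58 (limma adjusted p = 0.000397) and Pfkl lower, with a change of -0.51 (limma adjusted p = 0.00137). Of the 10 calls among these 30 genes, Pdk3 was the 1 that ended in this setting, and Hk2 was gained. What the shared shifts of neighbours come from was not tested.

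**Figure D3:**
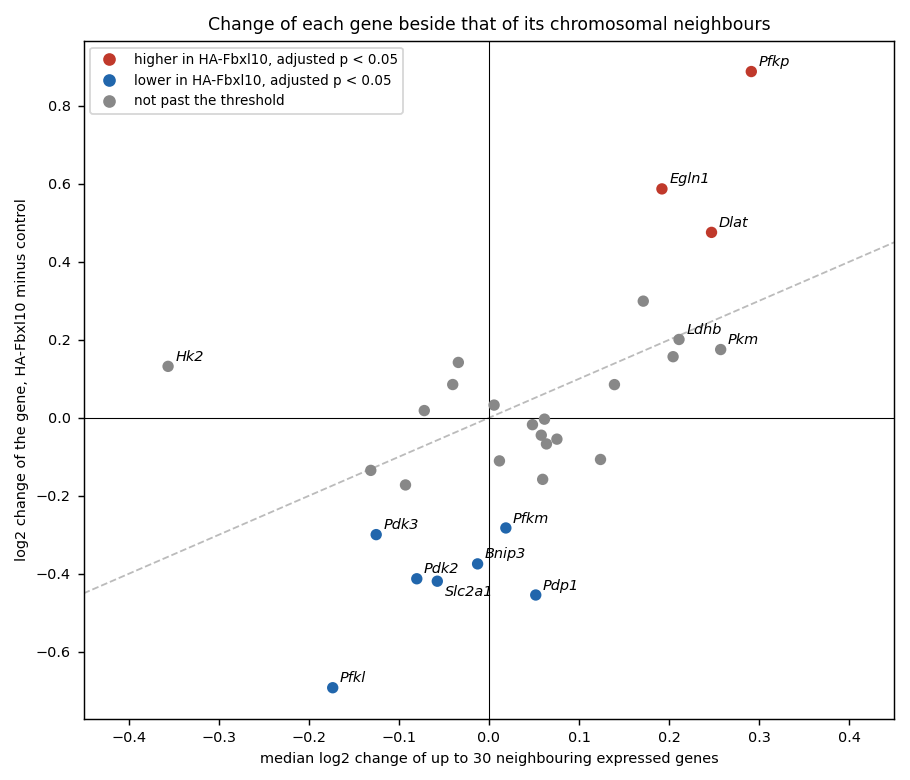
Log2 change of each of 30 genes (y axis) against the median log2 change of up to 30 neighbouring expressed genes (x axis), with the dashed line where both are equal. Pfkp, Egln1 and Dlat lie above the line among raised neighbours (0.19 to 0.29), Pdp1, Pfkm and Bnip3 fell with neighbours near 0, and Hk2 lies far above neighbours at -0.36.

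Other genes of oxygen sensing and HIF response were read from a separate list of 29 genes, of which 28 were measured. Of these, 7 rose, 7 fell and 14 did not pass, and their median change was -0.05. The 14 calls are 50% of the list, against 21.1% of all genes, and 21 of the 28 were above the median level, where 37.0% were called. Adm (adrenomedullin, a vasodilator peptide) had 8.05, 7.92 and 8.05 in HA-Fbxl10 cells, against 6.01, 6.14 and 6.35 in control cells, a 3.58-fold rise (1.84 ± 0.09, SE, limma adjusted p = 3.01e-06). Stc2, a secreted stanniocalcin, rose by 1.25 ± 0.10 (SE). Higd1a, a hypoxia-induced mitochondrial protein, rose by 0.64 ± 0.07 (SE). The Higd1a rise was 0.43 with chromosome medians removed and 0.48 with its 2 probe sets averaged. Car12, a membrane carbonic anhydrase, fell by 0.85 ± 0.09 (SE), at levels near the median of all genes. Known targets of HIF thus lay on both sides, and the count of falls was 3 without HA-Fbxl10 replicate 3.

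A list of 27 other isozymes and enzymes around glucose-6-phosphate and pyruvate had 25 measured genes, of which 3 rose, 5 fell and 17 did not pass. The share called, 32%, lay between the 21.1% of all genes and the 37.0% of genes above the median level, which 12 of the 25 were. Pck2 (mitochondrial phosphoenolpyruvate carboxykinase) had 8.40, 8.57 and 8.43 in HA-Fbxl10 cells, against 9.50, 9.58 and 9.44 in control cells, a 2.05-fold fall (-1.04 ± 0.07, SE, limma adjusted p = 2.02e-05). Pcx (pyruvate carboxylase) fell by 0.75 ± 0.08 (SE), and G6pc3 (a glucose-6-phosphatase) fell by 1.12 ± 0.10, although its level was below the median of all genes. Other genes of glucose production in the list did not pass, with log2 changes of 0.12 for Pck1, -0.07 for Fbp1 and -0.07 for Fbp2. Their mean levels of 4.58, 3.19 and 3.95 were all below the median of all genes, so a change could be missed. Adpgk, an ADP-dependent glucokinase, rose by 0.62 ± 0.07 (SE), with neighbours on chromosome 9 at 0.25, and was at 0.41 with chromosome medians removed. Of 11 further genes of the pyruvate dehydrogenase complex, lipoylation and redox shuttles, 2 rose and 1 fell. The share called, 27.3%, was again between those of all genes and of genes above the median level, which 7 of the 11 were. Lipt1, a lipoyltransferase, rose by 0.55 ± 0.11 (SE). Pdpr, the regulatory subunit of the phosphatase, rose by 0.31 ± 0.09, while Mdh1 (cytosolic malate dehydrogenase) fell by 0.27 ± 0.07. The call of Pdpr ended without any 1 array other than control replicate 3 (adjusted p of 0.0607 to 0.118), and that of Mdh1 without control replicate 1 (0.0723) or HA-Fbxl10 replicate 2 (0.0653). Both calls also ended with chromosome medians removed, at 0.19 for Pdpr (adjusted p = 0.162) and -0.13 for Mdh1 (0.242). With the running median of neighbours removed they were at 0.14 (0.277) and -0.20 (0.0875), and the neighbours of Pdpr had a median change of 0.15. The Pdpr call ended with the replicate block as well (0.0863).

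**Figure D4:**
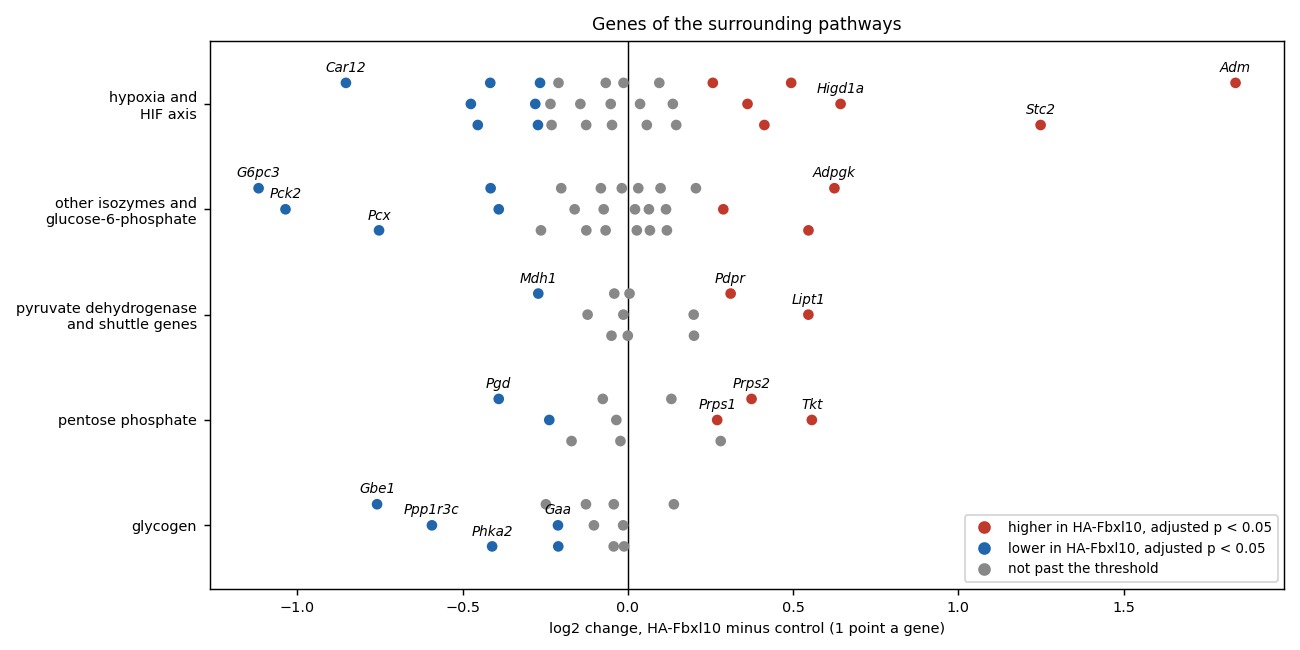
Log2 change of genes of the surrounding pathways, HA-Fbxl10 minus control, 1 point a gene in 5 lists, with up to 4 genes labelled in each. Adm (1.84) and Stc2 (1.25) stand highest and G6pc3 (-1.12) and Pck2 (-1.04) lowest, while glycogen genes that passed all lie below 0.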

How the data were processed

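RNA of 6 samples (300 ng per array, biotin label, per the labels' protocols) was hybridised to Affymetrix arrays. The authors deposited log2 expression values per probe set made with RMA, per the submitters' processing notes; its version, settings and genome build: not given in the sources used here. RMA makes array distributions alike and compresses low values, so a shift of most genes cannot be seen. Values were used as deposited. The table has no detection calls, dates or batches, so no batch was tested.

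Of 35556 probe sets, 21789 had 1 gene, 1621 had several and 12146 were unnamed here. Symbols were updated to RefSeq (GRCm38.p6) by Entrez identifier (21698) or accession (3), and 88 were kept. The probe set with the highest mean stood for each of 19936 genes (1001 had several), with no filter on dim genes.

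The fit used lmFit and eBayes of limma 3.58.1 under R 4.3.3 (two-sided, Benjamini-Hochberg over all genes, threshold 0.05), fold changes being HA-Fbxl10 over control. The script was tested on simulated data. Intervals are 95% per gene. Isozyme differences were tested by exact permutation over arrays. Members and lists were chosen with earlier results of these data known. Named genes were Kdm2b, all members and, from each of 5 lists of related genes, up to 4 with the largest change past the threshold. Eno3, Pdp2, Pck1, Fbp1 and Fbp2 of those lists are named as well, beside related genes. Markers of cell types are given as counts. Other settings were repeat quantile normalisation, array medians subtracted, the dimmest 30% of genes left out, probe sets averaged, variance trend, robust variance, array weights, a replicate block, each array left out, chromosome medians or a running median of 31 neighbours removed among genes above the median level (the rest kept as deposited), and an adjusted p of 0.01. Figures used matplotlib 3.10.9.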

Additional observations from a re-analysis of the deposited data

How the results depend on the processing

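Of the 12 calls, 9 kept direction and call in each of the 16 settings tried for them (for Slc2a3, below the median level, removal of chromosome or neighbour medians left its values as they were); Pdk3, Pdk4 and Bnip3 did not, as given above. Leaving out 1 array gave 4 to 5 rises and 6 to 8 falls among the members (main result 4 and 8), 1572 to 2052 rises and 1605 to 1867 falls over all genes, and a members' median of -0.0331 to 0.0031. It gave 3 to 6 falls in the HIF list, 3 in glycogen, 1 to 2 in pentose phosphate, and 1 to 2 rises and 0 to 1 falls in the pyruvate dehydrogenase list. At an adjusted p of 0.01, 5 members fell, as did 3 HIF, 3 glycogen, 1 pentose phosphate and 0 pyruvate dehydrogenase list genes, 1 of the last rose, and 1227 rose and 1309 fell over all genes. The variance trend gave 8 rises among the members and 2567 over all genes, and removal of chromosome medians gave 7 and 1697. In the pyruvate dehydrogenase list removal of chromosome medians gave 1 rise and 0 falls, as did the running median of neighbours; glycogen had 1 rise in the first and 3 falls in the second. With array medians subtracted, 1 pentose phosphate and 3 glycogen genes fell. The members' median was 0.0212 with array medians subtracted, -0.0446 with probe sets averaged and -0.0700 with the running median removed.

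Replicate numbers are shared by the groups, but nothing in the labels says that they pair samples. The deviations of same-numbered arrays correlated at 0.14, -0.31 and -0.04, which with 3 arrays per group cannot decide it. The replicate block gave 4 rises and 7 falls among the members, 1 rise in the pyruvate dehydrogenase list, 1 fall in pentose phosphate and 3 in glycogen, and 1667 rises and 1730 falls over all genes.

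The genes whose sign turned did not pass in the main result or in that setting, except Prps1, which passed in the main result. Quantile normalisation gave 0.0037 for Pfkfb2, -0.0110 for Aldoa, 0.0263 for Slc16a3 and 0.0221 for Pdk1. Array medians gave 0.0254 for Slc16a3, 0.0212 for Pdha1 and 0.0353 for Dld, array weights 0.0142 for Dld, and averaged probe sets -0.0556 for Hk1. Chromosome medians gave -0.0398 for Pkm and 0.0588 for Slc16a1. The running median gave -0.0221 for Pgk1, 0.0022 for Pgam1, -0.0337 for Pkm, -0.0022 for Ldhb, -0.0509 for Pdhb and -0.0078 for Prps1. Without single arrays the ranges were -0.15 to 0.0087 for Aldoc, -0.0326 to 0.0290 for Dld, -0.0050 to 0.17 for Egln3, -0.0351 to 0.0636 for Hk1, -0.15 to 0.12 for Pdk1, -0.13 to 0.0216 for Pfkfb2 and -0.0604 to 0.0790 for Slc16a3. The cause of these moves was not tested. The smallest call among the members was Pfkm at -0.28, and among the related genes named it was Gaa at -0.21.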

Other observations

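The pentose phosphate pathway turns glucose-6-phosphate into NADPH and ribose. Its 11 measured genes gave 3 rises and 2 falls in limma, and 6 did not pass. The share called was 45.5%, against 21.1% of all genes and 37.0% of genes above the median level, which 10 of the 11 were. Tkt (transketolase), which joins this pathway to glycolysis, had 9.42, 9.47 and 9.33 in HA-Fbxl10 cells, against 8.93, 8.73 and 8.89 in control cells, a 1.47-fold rise (0.56 ± 0.08, SE, limma adjusted p = 0.000816). Pgd (phosphogluconate dehydrogenase), an NADPH-producing enzyme, had 10.33, 10.27 and 10.34 in HA-Fbxl10 cells, against 10.70, 10.67 and 10.74 in control cells, a 1.31-fold fall (-0.39 ± 0.06, SE, limma adjusted p = 0.00176). With the running median of neighbours removed, Tkt was at 0.36 (adjusted p = 0.00786) and Pgd at -0.22 (0.0481). Prps2 and Prps1, which make phosphoribosyl pyrophosphate, rose by 0.37 ± 0.06 and 0.27 ± 0.07 (SE). The neighbours of Prps1 on the X chromosome had a median change of 0.25, and its change was -0.0078 with the running median of neighbours removed. The call of Prps1 also ended with the replicate block (adjusted p = 0.0536) and without any 1 of control replicates 1 and 2 and HA-Fbxl10 replicates 2 and 3 (0.0543 to 0.0717). The count of falls in the list was 1 without any array other than control replicate 2.

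Glycogen metabolism had 13 measured genes, with 5 falls, 0 rises and 8 genes that did not pass the limma test. The share called, 38.5%, is close to the 37.0% of all genes above the median level, which 10 of the 13 were. Gbe1, the glycogen branching enzyme and a HIF target, had 5.86, 6.09 and 6.12 in HA-Fbxl10 cells, against 6.63, 6.75 and 6.96 in control cells, a 1.69-fold fall (-0.76 ± 0.10, SE, limma adjusted p = 0.000798). Ppp1r3c, which targets a phosphatase to glycogen, fell by 0.59 ± 0.09 (SE) at levels below the median of all genes. Phka2, a phosphorylase kinase subunit, fell by 0.41 ± 0.08. Gaa, the lysosomal glucosidase, fell by 0.21 ± 0.06, but its neighbours on chromosome 11 had a median of -0.18, and its call ended without any 1 array (adjusted p of 0.0547 to 0.112). The count of falls in the list was 3 without any 1 of the 6 arrays.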
